A study of Danio rerio with 5 samples.

Results

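The genes described here are the 93 chaperone genes, of 22656 genes in the deposited table, whose symbols name a subunit of the CCT chaperonin (cct2 to cct8 and tcp1), a prefoldin subunit (pfdn), a heat shock protein (hsp), a J protein (dnaj), a BAG co-chaperone (bag1 to bag6) or a heat shock factor (hsf). Membership was set by symbol, but with earlier results of these data known. The symbol rule also took in hspg2, which encodes perlecan, a basement membrane proteoglycan and not a chaperone. RNA was sequenced from whole zebrafish embryos of the Tübingen strain, kept at 28 °C and freed of chorion and yolk. There were 3 libraries at 4 hours post-fertilisation (hpf), sphere stage, around the mid-blastula transition (MBT), and 2 libraries at 5.3 hpf, 30% epiboly (post-MBT). Libraries are lettered within each stage, because the count columns name the stage but no sample. For neither stage do the labels name a mutation, a heat treatment, a drug or an injected agent. Whole embryos were used, so fewer cells of a type and less RNA per cell cannot be told apart.

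Chaperones bind polypeptides that are not yet folded or have lost their fold. HSP70 proteins bind short hydrophobic stretches in cycles of ATP hydrolysis, J proteins stimulate that hydrolysis, and BAG proteins and HSP110 proteins help release the nucleotide. HSP90 acts on clients that are partly folded, prefoldin passes new actin and tubulin chains to the ring-shaped chaperonin CCT, and small heat shock proteins hold aggregating proteins without using ATP. The cytosol, the endoplasmic reticulum (ER) and the mitochondria each have their own HSP70 and HSP90 family members. Heat shock factors are the transcription factors that induce many of these genes under heat. In the early zebrafish embryo, transcripts loaded by the mother are degraded while the embryo's own genome becomes active, and the 2 stages compared lie in that period.

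Total counts per library ran from 2488983 to 3701401, of which 43.0% to 51.5% came from mitochondrial genes, and nuclear genes held 1329104 to 2075880 counts. Genes known to be switched on near the start of gastrulation matched the stage labels, with a summed level of 134 to 164 CPM (counts of a gene relative to the scaled size of its library) in the MBT libraries and 1334 to 1410 CPM in the post-MBT libraries. No count above 8 was found for 4 differentiated muscle markers, nor above 10 for 2 nervous system markers. The 93 genes together took 1.095%, 1.088% and 1.066% of nuclear counts in MBT A, B and C and 1.205% and 1.196% in post-MBT A and B.

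Of the 93 genes, 67 had enough counts to be tested and 26 did not, with no more than 25 counts in any library for the untested ones. After the MBT, 23 genes rose, 13 fell and 31 received no call by edgeR's quasi-likelihood test (Benjamini-Hochberg adjusted p under 0.05 over all 12007 tested genes). Over all tested genes 62.8% were called, 31.0% as rises and 31.8% as falls, against 34.3% rises and 19.4% falls among the tested chaperone genes. The median log2 fold change (post-MBT over MBT) was 0.20 for the chaperone genes and -0.04 for all tested genes. The changes were mostly small, since 3 chaperone genes rose and 8 fell by at least 2-fold, compared with 16.0% and 18.6% of all tested genes. The libraries of the stages did not overlap for 44 chaperone genes, or 65.7%, where 73.9% of all tested genes did not overlap. The split between rises and falls depended on the scaling. When counts were scaled by library totals instead of TMM factors, log2 fold changes moved by a median of -0.41, and 5 chaperone genes rose while 25 fell. On that scale 64.5% of all tested genes were called, 18.1% as rises and 46.4% as falls. A difference in log2 fold change between 2 genes does not depend on the scaling. The calls of 12 of the 36 called genes were kept in every alternative that tested them: hspa8, hspb1, dnaja1, hsf1, hspa5, hsp90b1, dnajc3a, dnaja3a, dnaja3b, dnajc5ga, dnajc18 and bag5. For dnajc3a and dnaja3b the kept calls add no support, as both passed the low-count filter through the MBT libraries alone, where they are higher. The low-count filter was passed through the libraries of a single stage by 7 of the 67 genes, of which 1 rose (hsp90aa1.2) and 3 fell (dnajc3a, dnaja3b and hspbap1). A gene that passes in this way is chosen for being higher at that stage, so the counts here include these 4 calls, but their tests are not given. The called genes pfdn4 and dnajb12b are not among the 7, but would not have passed without the libraries of the stage where they are higher. Their tests are left out for the same reason.

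**Figure D1:**
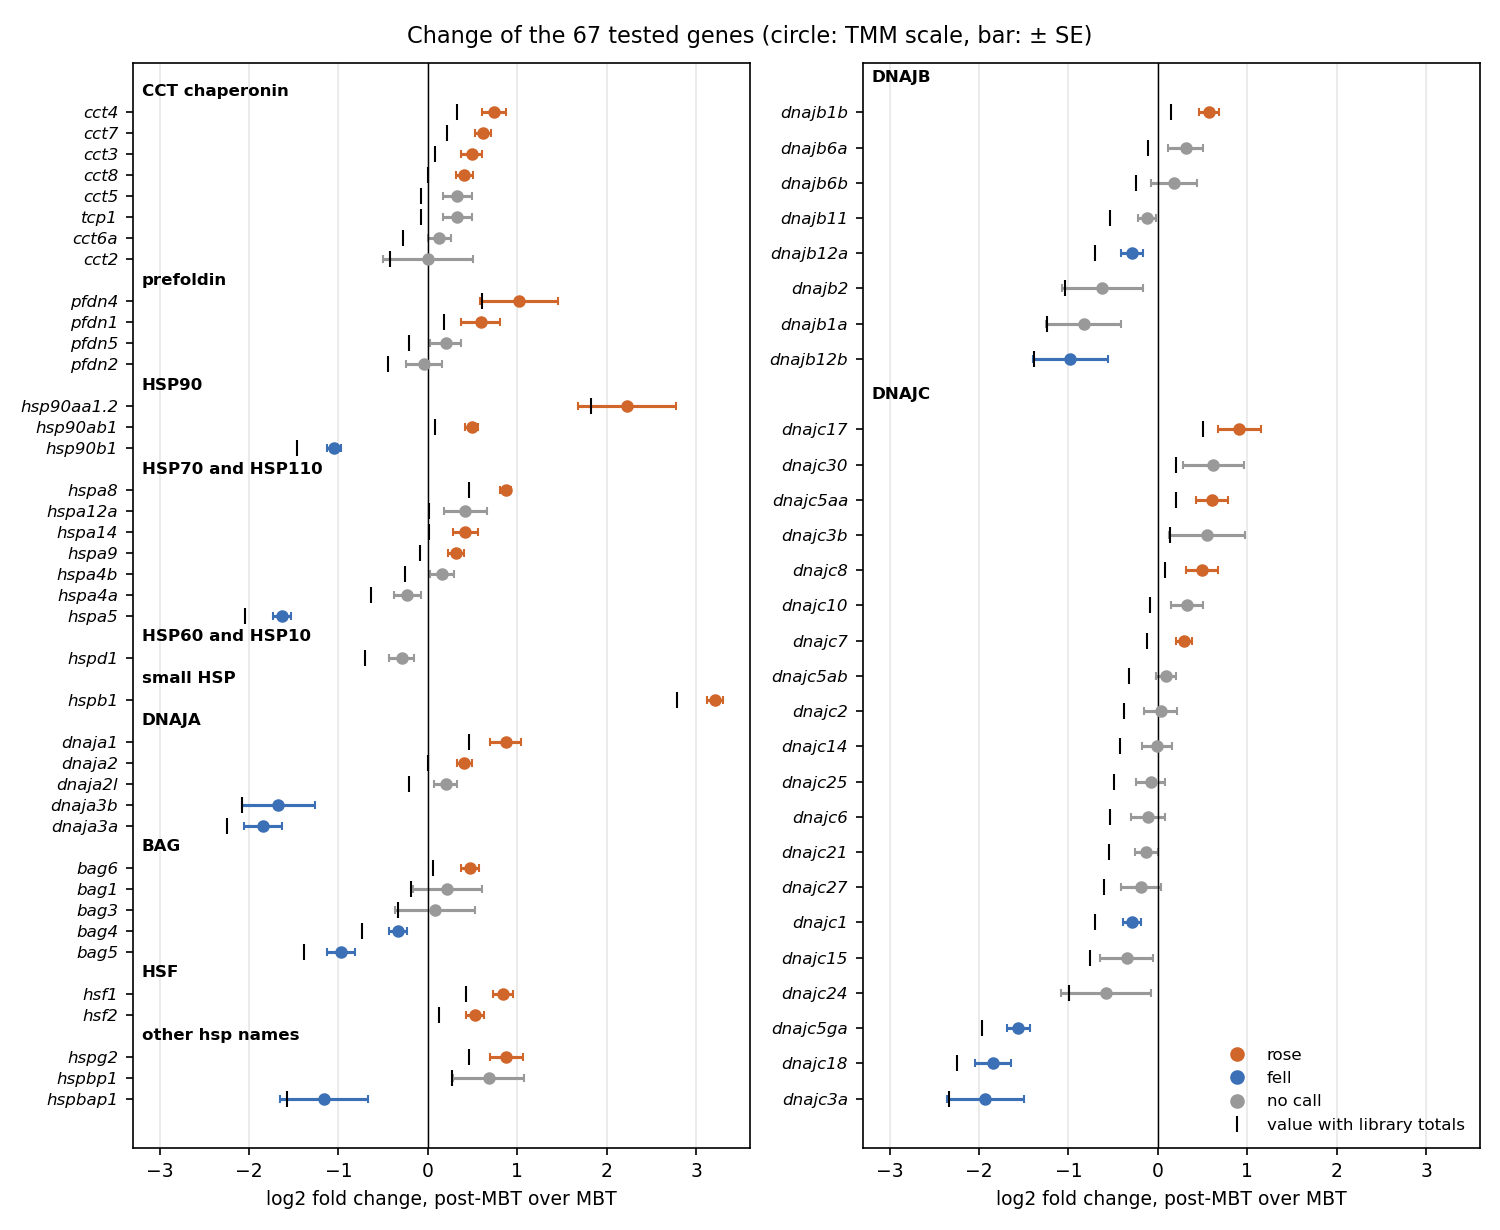
Log2 fold change, post-MBT over MBT, of each of the 67 tested genes, by class. Circles are values on the TMM scale with bars of ± 1 SE, coloured by call, and black ticks are the values with library totals. The changes run from -1.93 (dnajc3a) to 3.21 (hspb1), and the ticks lie left of the circles throughout.

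Both tested heat shock factor genes rose, beside 31.0% of all tested genes. The gene hsf1 (chromosome 19, 3115533 to 3141370) encodes the main activator of the heat shock response and stood at 63.5, 49.6 and 59.2 CPM in MBT A, B and C and 99.5 and 104 CPM in post-MBT A and B. Every post-MBT library was above every MBT library, and the log2 fold change was 0.84 ± 0.11 (SE; edgeR adjusted p = 8.26e-10). Its relative hsf2, which forms mixed trimers with HSF1 in mammals, stood at 88.0, 75.0 and 95.1 CPM and then at 126 and 119 CPM (log2 fold change 0.53 ± 0.10, edgeR adjusted p = 8.08e-06). The stages did not overlap there either, but the call on hsf2 was lost with library totals (0.12, adjusted p = 0.425), while that on hsf1 was kept (0.43, adjusted p = 0.00404). The HSF2-binding protein gene hsf2bp had 8 counts or fewer per library and was not tested.

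Genes for the main constitutive cytosolic chaperones were the most abundant of the set at the MBT and rose. The gene hspa8 (chromosome 10, 29963158 to 29967370) encodes HSC70, the HSP70 that cells make without stress. Its level was 1382, 1412 and 1340.1 CPM in MBT A, B and C and 2498 and 2545 CPM in post-MBT A and B. It was thus 1.83-fold higher after the MBT, with no overlap (log2 fold change 0.87 ± 0.06, edgeR adjusted p = 4.59e-22), and the rise was kept with library totals (0.46, adjusted p = 7.18e-06). Of all counts of the 93 genes, hspa8 held 26.3%, 27.2% and 26.3% at the MBT and 35.7% and 36.8% after it. The constitutive HSP90 gene hsp90ab1 (chromosome 20, 51385226 to 51398620) stood at 572, 534 and 549 CPM and then at 771 and 775 CPM. That rise was smaller (log2 fold change 0.49 ± 0.07, edgeR adjusted p = 1.09e-09) and was not called with library totals (0.08, adjusted p = 0.477). The ribosome-linked HSP70 relative hspa14 stood at 38.2, 39.0 and 29.6 CPM and then at 51.5 and 44.6 CPM. Its rise of 0.42 ± 0.14 on the log2 scale (edgeR adjusted p = 0.00848) lost its call with library totals (0.01, adjusted p = 0.97). That call was also lost with the DESeq2 Wald test (adjusted p = 0.107) and without MBT C or post-MBT A. The HSP110-family genes hspa4a and hspa4b, whose products act as nucleotide exchange factors, received no call, with log2 fold changes of -0.23 ± 0.15 and 0.16 ± 0.13.

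**Figure D2:**
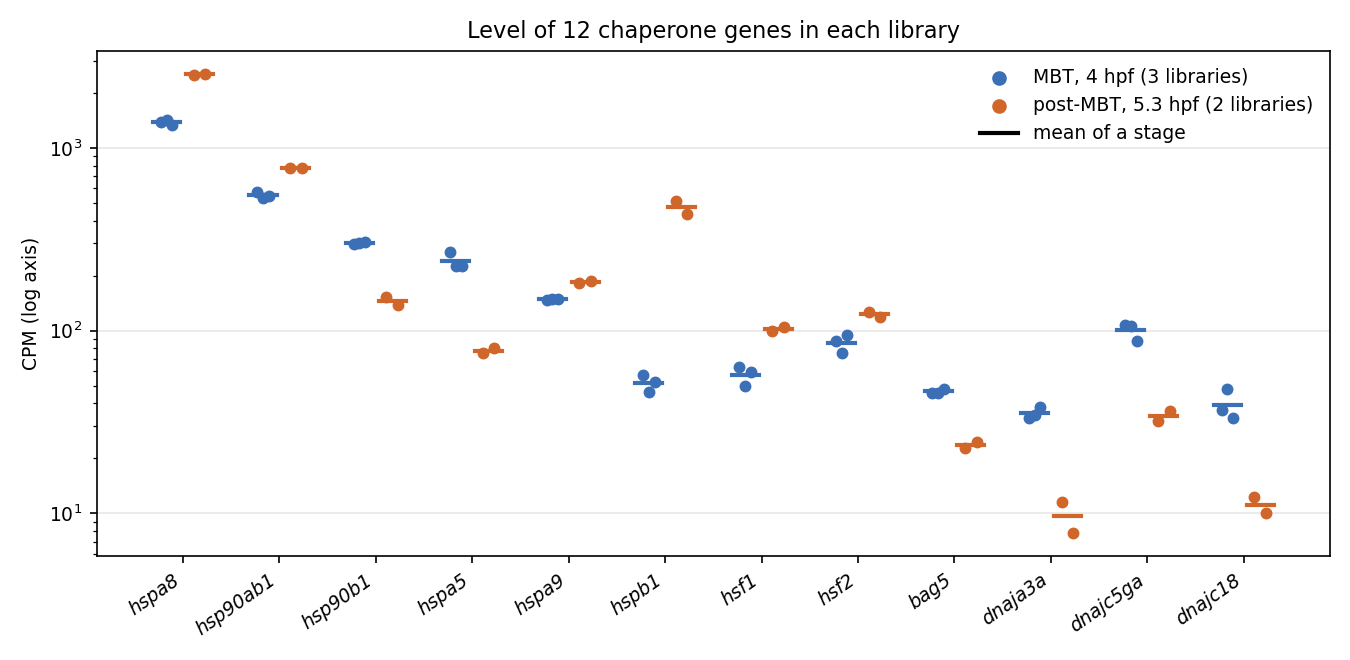
Level in CPM (log axis) of 12 chaperone genes in each of the 3 MBT and 2 post-MBT libraries. Points are libraries and horizontal lines are stage means. The cytosolic genes hspa8 and hsp90ab1 and the small heat shock protein gene hspb1 are higher after the MBT, while hspa5, hsp90b1, bag5, dnaja3a, dnajc5ga and dnajc18 are lower, with no overlap between stages.

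The main ER chaperone genes moved the other way. The gene hspa5 (chromosome 5, 2440679 to 2448587) encodes BiP, the HSP70 of the ER lumen, and stood at 269.9, 226 and 227 CPM in the MBT libraries and at 75.3 and 80.3 CPM in the post-MBT libraries. The stages did not overlap, and the fall was 3.09-fold (log2 fold change -1.63 ± 0.10, edgeR adjusted p = 1.06e-25). The gene hsp90b1 (chromosome 4, 9835593 to 9842920) encodes GRP94, the HSP90 of the same compartment. Its level was 298, 301 and 304 CPM and then 152 and 139 CPM, a 2.06-fold fall without overlap (-1.05 ± 0.08, edgeR adjusted p = 5.21e-19). Both falls were kept in all 12 alternatives.

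Of 15 ER members, 10 were tested, of which 6 fell, none rose and 4 received no call, beside 31.8% falls and 31.0% rises over all tested genes. Their median log2 fold change was -0.29. With library totals 8 fell and none rose, with a median of -0.70, beside 46.4% falls, 18.1% rises and a median of -0.46 over all tested genes. With the DESeq2 Wald test, which called 19.1% of all its genes as rises and 16.0% as falls, 3 ER members fell and 1 rose, the rise being dnajb14, which had 1, 1 and 1 counts at the MBT and 7 and 9 after it and was too low for the edgeR test. The gene dnajc3a, whose product P58IPK is a J protein of the ER lumen, had the lowest log2 fold change of all 67 genes. It stood at 9.02, 6.88 and 8.36 CPM and then at 2.58 and 1.49 CPM (-1.93 ± 0.43), having passed the low-count filter through the MBT libraries alone. The ER membrane J protein gene dnajc1, at 138, 130.1 and 145 CPM and then 118 and 107 CPM, fell by 0.29 ± 0.10 on the log2 scale (edgeR adjusted p = 0.00737). The stages did not overlap, but the call was lost without post-MBT B and with the DESeq2 Wald test.

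The paired genes dnajb12a and dnajb12b encode another ER membrane J protein. The first stood at 62.8, 74.1 and 87.4 CPM and then at 64.1 and 57.6 CPM, so the stages overlapped, and its fall of 0.29 ± 0.12 on the log2 scale (edgeR adjusted p = 0.0321) was lost with DESeq2 size factors, with the DESeq2 Wald test, with an offset for exonic length and without MBT C or post-MBT B. The second stood at 7.58, 5.28 and 4.88 CPM and then at 2.25 and 3.72 CPM (-0.98 ± 0.42), and would not have passed the low-count filter without the MBT libraries. Its call as a fall was lost without MBT A or post-MBT A, with the DESeq2 Wald test and with no low-count filter. The lumenal J protein gene dnajb11 stood at 95.6, 109 and 105 CPM and then at 97.9 and 92.5 CPM, with overlap and no call (-0.12 ± 0.10, edgeR adjusted p = 0.312).

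A ratio of counts taken within a library does not depend on the scaling, and 4 such ratios were computed after the levels had been seen. There were 5.12, 6.23 and 5.91 counts of hspa8 per count of hspa5 in MBT A, B and C and 33.2 and 31.7 in post-MBT A and B. For hsp90ab1 per hsp90b1 the ratio was 1.92, 1.77 and 1.81 and then 5.07 and 5.58. Within the cytosol, hspa8 per hsp90ab1 went from 2.42, 2.64 and 2.44 to 3.24 and 3.28. For each of the 4 ratios the stages did not overlap. For hspa8 per hspa5, hsp90ab1 per hsp90b1 and hspa9 per hspa5 this was fixed in advance, as each sets a gene that rose over one that fell. All 4 ratios were chosen from levels already seen, so no test of them is given. ER members held 18.1%, 17.7% and 18.5% of all counts of the 93 genes at the MBT and 8.39% and 8.02% after it. Their mean summed level went from 938 to 570 CPM, mostly through hspa5 (241 to 77.8 CPM) and hsp90b1 (301 to 146 CPM). The share also fell because hspa8 grew from a mean of 26.6% to 36.3% of these counts and hspb1 from 0.998% to 6.80%. It is thus not a measure of the ER members as a class.

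**Figure D3:**
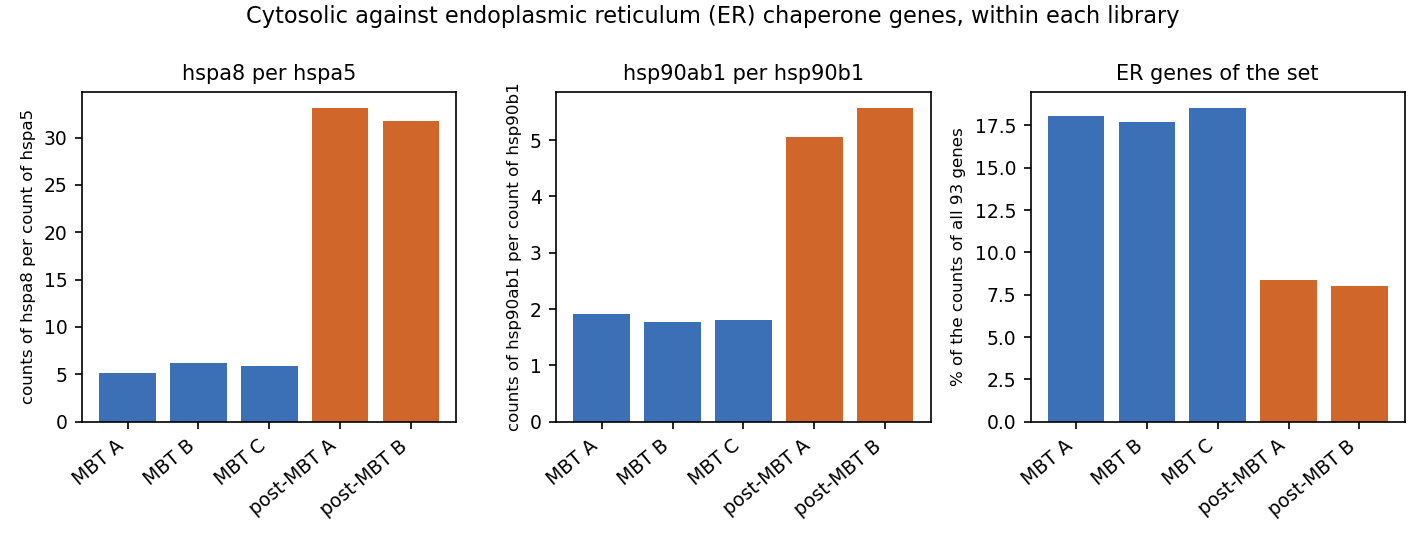
Counts of hspa8 per count of hspa5 (left), counts of hsp90ab1 per count of hsp90b1 (middle) and the share of the 93 genes' counts held by ER members (right, percent), 1 bar per library with the MBT in blue and post-MBT in orange. The hspa8 to hspa5 ratio is 5.12 to 6.23 at the MBT and 31.7 to 33.2 after it.

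Of 10 mitochondrial members, 6 were tested, of which 1 rose and 2 fell, beside 31.0% rises and 31.8% falls over all tested genes. With library totals none rose and 4 fell, beside 18.1% rises and 46.4% falls over all tested genes. The gene dnajc11, currently dnajc11a, is not among the 10 because the list was matched by symbol. It was not tested. The gene hspa9 encodes mortalin, the HSP70 of the mitochondrial matrix, and stood at 146, 148 and 149.8 CPM and then at 182 and 188 CPM. It rose by 0.32 ± 0.09 on the log2 scale (edgeR adjusted p = 0.000946), but with library totals the sign turned (-0.09, adjusted p = 0.48). The counts of hspa9 per count of hspa5 were 0.543, 0.656 and 0.661 and then 2.41 and 2.34.

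The J protein genes dnaja3a and dnaja3b, whose mammalian counterpart works with mortalin in mitochondria, were both lower after the MBT. The first stood at 33.2, 34.4 and 38.3 CPM and then at 11.6 and 7.80 CPM (log2 fold change -1.84 ± 0.21, edgeR adjusted p = 2.39e-12). The second stood at 8.30, 6.65 and 8.71 CPM and then at 2.58 and 2.23 CPM (-1.67 ± 0.41), having passed the low-count filter through the MBT libraries alone. The stages did not overlap for dnaja3a, and its call was kept in all 12 alternatives. The span of dnaja3a overlaps coro7 on the other strand, as do those of cct5, cct6a, pfdn2, pfdn4, dnajb1b and dnajc17 with other genes, and the counts are not stated to use strand, so reads of the overlapping parts cannot be told apart.

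The HSP60 and HSP10 genes hspd1 and hspe1, whose products form the mitochondrial chaperonin, lie head to head on chromosome 9 with 302 bases between them. The level of hspd1 was 54.1, 52.5 and 47.4 CPM and then 42.5 and 41.6 CPM. Its libraries did not overlap, but the difference did not pass the test (-0.29 ± 0.14, edgeR adjusted p = 0.0579), whereas with library totals it was called as a fall (-0.70, adjusted p = 7.86e-05). Its neighbour hspe1 had 1, 3, 5, 6 and 1 counts in the 5 libraries and was not tested.

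The largest rise of the set was that of a small heat shock protein gene. The gene hspb1 (chromosome 5, 3238393 to 3244467) encodes the zebrafish HSP27 and stood at 57.0, 45.9 and 52.3 CPM in MBT A, B and C and at 512 and 433 CPM in post-MBT A and B. The rise was 9.25-fold without overlap (log2 fold change 3.21 ± 0.09, edgeR adjusted p = 3.87e-46) and was kept in all 12 alternatives. Of the 12007 tested genes, 245 had a larger log2 fold change. By level per kb, hspb1 moved from rank 572 to rank 37 among them. Markers of the enveloping layer, the outer epithelium of the embryo, rose over the same interval: 4 of 4 were counted in every library, with a summed level of 77.6 to 94.8 CPM at the MBT and 799.8 to 801 CPM after it. Markers of the yolk syncytial layer, 3 of 3 in the table, summed to 0.722 to 2.75 CPM and then to 48.0 to 55.7 CPM, with hnf4a at 0 counts in the 3 MBT libraries. Their part in the rise of hspb1 was not tested. The other 4 small heat shock protein genes, hspb6, hspb8, hspb9 and hspb15, had no more than 5 counts in any library.

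Of 14 members known in vertebrates to be induced by heat, 7 had no more than 6 counts in any library of these embryos and were not tested. Of the other 7, 3 rose (hspb1, dnajb1b and the low-count hsp90aa1.2) and none fell, beside 31.0% rises and 31.8% falls over all tested genes. With library totals 2 rose and 3 fell, the falls being dnajb1a (-1.24), hspa4a (-0.64) and hspd1 (-0.70). The 42.9% of falls on that scale is near the 46.4% over all tested genes, of which 18.1% rose. The stress-inducible hsp70l had 2, 0 and 4 counts at the MBT and 0 and 0 after it, where a count of 0 allows up to 0.966 and 1.11 CPM. The genes hsp70 and hsp70.2, which neighbour each other on chromosome 3, had at most 6 counts, and as near-identical copies their values are uncertain. Because the list was matched by symbol, hsp70, whose current symbols are hsp70.1 and hsp70.3, is not among the 14. It was not tested. The HSP90 alpha gene hsp90aa1.2 stood at 0.361, 0.688 and 2.44 CPM and then at 6.44 and 4.09 CPM, at or below the floor of 3 counts in MBT A and B. It passed the low-count filter through the post-MBT libraries. Its log2 fold change was 2.23 ± 0.55, with a range of 1.84 (without post-MBT A) to 3.17 (without MBT C) when a library was left out, and the call was lost without post-MBT A. It lies 698 bases from hsp90aa1.1, a gene known for myosin folding in zebrafish muscle, which had at most 3 counts. How reads shared by such copies were counted is unknown.

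Part of the chaperonin CCT rose, by less than 2-fold. Of its 8 subunit genes, 4 rose, none fell and 4 received no call, with a median log2 fold change of 0.37. Over all tested genes 31.0% rose and 31.8% fell, with a median of -0.04. With library totals none of the 8 was called and their median was -0.04. On that scale 18.1% of all tested genes rose and 46.4% fell, with a median of -0.46. Summed over the 8 genes, the level was 443, 466 and 440.3 CPM at the MBT and 606 and 636 CPM after it. The gene cct4 stood at 35.7, 38.5 and 35.5 CPM and then at 61.8 and 61.3 CPM (log2 fold change 0.74 ± 0.13, edgeR adjusted p = 1.23e-06), the largest change of the complex. For cct7 the values were 108, 117 and 93.7 CPM and then 169 and 160.2 CPM (0.62 ± 0.09, edgeR adjusted p = 2.26e-08). The stages did not overlap for either gene. The levels of cct3 were 54.8, 60.3 and 57.1 CPM and then 77.6 and 84.7 CPM (0.49 ± 0.12, edgeR adjusted p = 0.000188). Those of cct8 were 133, 133 and 126 CPM and then 169 and 179 CPM (0.41 ± 0.09, edgeR adjusted p = 4.46e-05). These 2 genes did not overlap between stages either.

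The other subunits did not pass the test. The gene cct5 stood at 26.7, 30.5 and 35.5 CPM and then at 34.8 and 43.5 CPM (0.33 ± 0.16, edgeR adjusted p = 0.0586), and tcp1, which encodes the alpha subunit, at 24.9, 28.2 and 32.7 CPM and then at 35.4 and 36.4 CPM (0.33 ± 0.16, edgeR adjusted p = 0.0691). The stages overlapped for cct5 but not for tcp1. With DESeq2 size factors, which gave rises for 32.2% of all tested genes, 6 of the 8 subunit genes rose. The gene cct6a, at 55.6, 55.5 and 56.8 CPM and then 54.7 and 68.0 CPM, had a log2 fold change of 0.13 ± 0.13. The gene cct2 had 3.97, 2.98 and 2.44 CPM and then 3.54 and 2.60 CPM, and its annotated span on chromosome 4, from 656 to 76624991, covers most of the chromosome, so its values may not be those of 1 locus.

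Subunits of a complex can be compared by level only per length. In CPM per kb of exonic length, cct8 (63.6 at the MBT and 84.7 after it) and cct7 (51.3 and 79.5) were the highest of the complex, and tcp1 (15.2 and 19.1) the lowest apart from cct2 (2.94 and 2.88). After the MBT, cct3 (41.2), cct4 (32.9), cct6a (28.1) and cct5 (24.4) lay between them. The products of the 8 genes stand in equal numbers in the ring, while the levels of cct8 and tcp1 differed in every library.

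**Figure D4:**
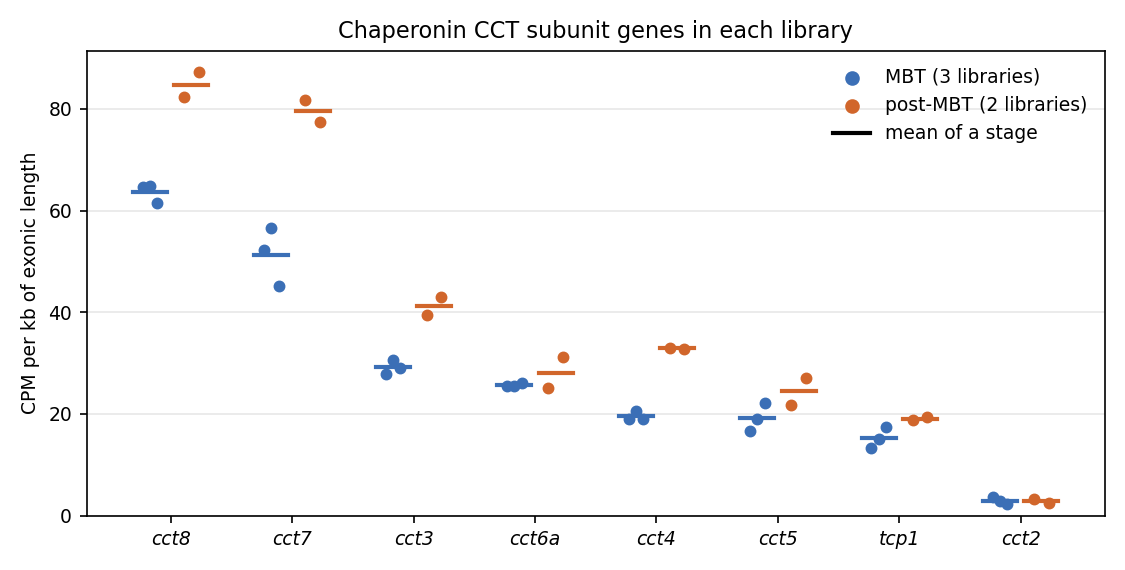
Level of the 8 CCT subunit genes in CPM per kb of exonic length, with points for the 3 MBT and 2 post-MBT libraries and lines for stage means. The genes cct8, cct7, cct3 and cct4 are higher in every post-MBT library, and the order from cct8 to cct2 spans 63.6 to 2.94 CPM per kb at the MBT.

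The calls on pfdn genes were lost in several alternatives. Of 5 pfdn genes, 4 were tested, of which 2 rose and none fell, beside 31.0% rises and 31.8% falls over all tested genes. With library totals none was called, beside 64.5% of all tested genes. The gene pfdn1 stood at 15.9, 11.2 and 16.4 CPM and then at 23.8 and 18.6 CPM (log2 fold change 0.59 ± 0.22, edgeR adjusted p = 0.0137), a call lost without MBT B or post-MBT A. The gene pfdn4 stood at 2.89, 2.52 and 2.44 CPM and then at 6.76 and 3.72 CPM (1.02 ± 0.44), and would not have passed the low-count filter without the post-MBT libraries. Its call was lost without MBT C. Both calls were also lost with the DESeq2 Wald test and with the exonic length offset. The stages overlapped for pfdn5 (0.20 ± 0.17) and pfdn2 (-0.04 ± 0.20), which received no call. This class holds pfdn symbols only. The gene vbp1, which encodes a prefoldin subunit under another symbol, was read among the CCT and prefoldin partners. It rose by 0.69 ± 0.18 on the log2 scale (edgeR adjusted p = 0.000675), beside 2 falls among 9 tested partners. Its counts were 62, 71 and 60 at the MBT and 96 and 86 after it. Only with library totals was the call on vbp1 lost.

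J protein genes, which set where and on what HSP70 acts, were split in direction. Of 45 genes, 33 were tested, of which 7 rose, 8 fell and 18 received no call, with a median log2 fold change of -0.08. These are 21.2% rises and 24.2% falls, both below the 31.0% and 31.8% over all tested genes. The rises were not called with library totals, apart from dnaja1. On that scale 18 J protein genes fell, or 54.5%, beside 46.4% of all tested genes. Among genes for cytosolic partners of HSC70, dnaja1 stood at 25.3, 21.8 and 16.7 CPM and then at 34.4 and 43.9 CPM (0.87 ± 0.17, edgeR adjusted p = 8.77e-06). The more abundant dnaja2, at 165, 152 and 153 CPM and then 208 and 207 CPM, rose by 0.41 ± 0.08 on the log2 scale (edgeR adjusted p = 1.77e-05). The HSP40 gene dnajb1b, at 64.2, 58.0 and 64.8 CPM and then 91.1 and 92.5 CPM, rose by 0.57 ± 0.11 (edgeR adjusted p = 1e-05). None of these 3 genes overlapped between the stages.

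Among the 33 J protein genes tested by edgeR, the largest falls exceeded the largest rises. The untested dnajb14, with at most 9 counts per library, had a log2 fold change of 3.2 with the DESeq2 Wald test and was called there as a rise. The gene dnajc5ga, of the cysteine string protein family whose members coat secretory vesicles, stood at 108, 107 and 87.4 CPM and then at 32.2 and 36.4 CPM (log2 fold change -1.56 ± 0.13, edgeR adjusted p = 3.74e-18). The gene dnajc18, whose mammalian counterpart sits in the ER membrane but which is not in the ER list used above, stood at 36.8, 48.2 and 33.1 CPM and then at 12.2 and 10.0 CPM (-1.84 ± 0.20, edgeR adjusted p = 6.52e-13). Both were without overlap and kept their calls in all 12 alternatives. Rising DNAJC genes included dnajc17, linked to splicing in mammals, at 12.3, 8.95 and 8.36 CPM and then 15.1 and 21.9 CPM (0.91 ± 0.24, edgeR adjusted p = 0.000669), which lost its call with library totals and without post-MBT B. The other 3 rises were named after their values had been seen: dnajc5aa (0.61 ± 0.18), dnajc7 (0.29 ± 0.09), whose product binds both HSP70 and HSP90, and dnajc8 (0.49 ± 0.18). Each lost its call in at least 2 alternatives, library totals among them.

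Among 10 pairs of duplicated genes, no pair was called in opposite directions. The pairs of dnajb9a and dnajb9b, dnajc5ga and dnajc5gb, and hsp90aa1.1 and hsp90aa1.2 could not be, as each holds an untested gene. The share of a pair's counts held by the first gene moved most for dnajc3a over dnajc3b, from 61.0%, 68.2% and 82.8% to 33.3% and 22.2%. For dnajb1a over dnajb1b it went from 11.0%, 6.64% and 8.82% to 2.75% and 4.23%. The stages did not overlap for either pair, nor for dnajc5aa over dnajc5ab, dnajc5ga over dnajc5gb and hspa4a over hspa4b. The share of dnajc5aa went from 24.4%, 19.2% and 22.2% to 27.1% and 29.6%. That of hspa4a went from 47.8%, 47.5% and 42.2% to 38.0% and 41.0%. The 2-sided exact permutation test gave p = 0.1 for dnajc3a over dnajc3b and 0.2 for dnajb1a over dnajb1b (0.4 for both after Benjamini-Hochberg adjustment over the 10 pairs). Since 3 against 2 libraries cannot go below 0.1, the test could not pass 0.05 for any pair. Of the counts of dnaja3a and dnaja3b, the first gene held 80.0%, 83.8% and 81.5% and then 81.8% and 77.8%. Duplicated genes can share reads.

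BAG genes differed from one another. The gene bag5, whose product holds several BAG domains that act on HSP70, stood at 45.8, 45.7 and 48.1 CPM and then at 22.9 and 24.5 CPM (log2 fold change -0.97 ± 0.16, edgeR adjusted p = 1.32e-07). The gene bag4 stood at 122, 124 and 113 CPM and then at 101 and 89.9 CPM (-0.33 ± 0.10, edgeR adjusted p = 0.0036), a call lost without post-MBT B and with the DESeq2 Wald test. The gene bag6, whose product guards hydrophobic membrane protein segments in the cytosol, stood at 75.0, 78.5 and 78.4 CPM and then at 105 and 110.0 CPM (0.47 ± 0.10, edgeR adjusted p = 7.11e-05). None of the 3 overlapped between stages, but the rise of bag6 lost its call with library totals (0.06, adjusted p = 0.709). The low genes bag1, at 3.97, 3.90 and 5.57 CPM and then 6.76 and 3.34 CPM, and bag3, at 2.16, 4.13 and 4.18 CPM and then 4.19 and 3.34 CPM, overlapped and received no call, and bag2 had 1 count in all.

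The remaining hsp symbols cover 3 genes with other functions. The perlecan gene hspg2 stood at 17.3, 15.1 and 16.0 CPM and then at 24.5 and 34.9 CPM (log2 fold change 0.88 ± 0.19, edgeR adjusted p = 6.2e-05). Its call was lost with library totals (0.46, adjusted p = 0.0513). On the TMM scale, 22 chaperone genes rose when hspg2 was left out. The gene hspbap1, for a protein that binds HSPB1 in mammals, stood at 2.89, 5.28 and 5.57 CPM and then at 2.25 and 1.86 CPM (-1.16 ± 0.49), having passed the low-count filter through the MBT libraries alone. Its call was lost with the DESeq2 Wald test and without MBT C, post-MBT A or post-MBT B. The HSP70 exchange factor gene hspbp1 stood at 4.69, 2.52 and 3.83 CPM and then at 5.80 and 5.58 CPM, with no call (0.68 ± 0.40).

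In order of level per kb, hspa8 (590.3 ± 15.4 CPM per kb, SD, n = 3) and hsp90ab1 (204 ± 7.10) led at the MBT. They were followed by hsp90b1 (111 ± 1.13) and hspa5 (103 ± 10.7), which did not differ beyond their spread. After it, hspa8 (1080.2 ± 14.3, n = 2) was followed by hspb1 (501 ± 58.7) and hsp90ab1 (287 ± 1.01), while hsp90b1 (53.5 ± 3.45) stood at rank 12 and hspa5 (33.2 ± 1.49) at rank 17. The genes dnaja2, cct8 and cct7 filled ranks 4 to 6 at this stage, at 105, 84.7 and 79.5 CPM per kb.

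Co-chaperones and folding factors outside the 93 genes were read from a separate list of 56 genes, of which 49 were tested, 14 rose and 13 fell. These are 28.6% and 26.5%, near the 31.0% and 31.8% over all tested genes. The falls include chordc1a and tbcc, which passed the low-count filter through the MBT libraries alone. The rises include sil1, which would not have passed without the post-MBT libraries. These calls add no support, and the counts here include them. With library totals 7 rose and 20 fell, or 14.3% and 40.8%, beside 18.1% and 46.4% over all tested genes. Among 13 tested ER folding genes, 6 fell (46.2%) and 4 rose (30.8%), and with library totals 9 fell (69.2%) and 2 rose (15.4%). The rises in both fits include the low-count serpinh1a and serpinh1b, described below. The most abundant of the named ER genes per kb was the disulphide isomerase gene p4hb, at 172 CPM per kb at the MBT and 198 after it, above hspa5 and hsp90b1. Its CPM was 501, 471 and 501 and then 565 and 564, a rise of 0.20 ± 0.07 on the log2 scale (edgeR adjusted p = 0.00832) that turned sign with library totals (-0.21) and lost its call without post-MBT A or post-MBT B. The largest ER falls were those of the disulphide isomerase gene pdia4, at 58.5, 57.6 and 52.6 CPM and then 13.2 and 11.9 CPM (log2 fold change -2.16 ± 0.18, edgeR adjusted p = 1.3e-18), and of the lectin chaperone gene calr, at 126, 137 and 143 CPM and then 58.3 and 49.4 CPM (-1.33 ± 0.11, edgeR adjusted p = 5.62e-18). The calreticulin relative canx (-0.60 ± 0.09) and the ER HSP110 gene hyou1 (-0.95 ± 0.09) fell too. None of these 4 genes overlapped between stages. The collagen chaperone genes serpinh1a and serpinh1b, named like p4hb after their values had been seen, had 1, 4 and 0 counts and 4, 3 and 3 counts at the MBT. After it they had 19 and 14 counts and 25 and 23 counts, and they passed the low-count filter through these libraries alone.

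Of the mitochondrial HSP70 partners, the exchange factor gene grpel2 rose from 3.61, 6.19 and 5.23 CPM to 32.8 and 28.2 CPM (log2 fold change 2.56 ± 0.24, edgeR adjusted p = 6.19e-16), while grpel1 received no call (-0.05 ± 0.25). The 3 tested genes of the nascent chain complex, which meets new polypeptides at the ribosome, all rose, but btf3l4 (0.36 ± 0.14, edgeR adjusted p = 0.0196) kept its call in only 5 of 12 alternatives and turned sign with library totals (-0.05). The gene naca went from 79.4, 62.4 and 79.1 CPM to 148 and 153 CPM (1.05 ± 0.10, edgeR adjusted p = 6.7e-15). HSP90 co-chaperone genes gave 4 rises and 4 falls among 19 tested, and 1 rise and 6 falls with library totals. CCT and prefoldin partners gave 1 rise and 2 falls among 9, and 0 rises and 4 falls with library totals. The falls of these 2 lists include chordc1a and tbcc in both fits, chosen through the MBT libraries as stated above. Over all tested genes 31.0% rose and 31.8% fell, and with library totals 18.1% rose and 46.4% fell.

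The authors' deposited table gives its own log2 ratio of 4 hpf over 5.3 hpf, with the opposite sign convention. Its direction matched for 36 of the 36 called genes, which adds no support, as both come from the same libraries. In the authors' deposited table the ratio was -3.191 for hspb1, 1.61 for hspa5 and -0.879 for hspa8. The exon comparison in the authors' deposited table, which looks for changes in the use of exons within a gene, gave a score of 0 for all 93 genes. Only 89 of all 22656 genes passed a score of 13 there, so the 93 genes do not stand out in this.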

How the data were processed

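Read counts per gene and library were deposited by the authors as whole numbers, per the file headers, and Novoalign 2.8 and DESeq2 appear in the submitters' processing notes. Per the labels' protocols, each library began with 5 ng of total RNA, random hexamer priming and tagmentation, followed by 10 cycles of PCR. The treatment of reads with several mapping positions is not stated. Coordinates are on the build named in the file headers, with starts converted to count from 1. The authors' deposited log2 ratio and exon log2 difference, and their score values (a rescaled negative log10 of a corrected p-value), per the file headers, were copied without change. A further set of 10 per-library columns was left unused. The stage, but no sample, is named by each count column, so the libraries carry letters within their stage. The labels do not say whether libraries stem from separate clutches, and p-values then reflect only the spread between these libraries, which may be technical.

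Changes were tested over all genes with edgeR 4.0.16 in R 4.3.3, using filterByExpr (count minimum 10), TMM scaling and the robust quasi-likelihood fit, with Benjamini-Hochberg adjustment over 12007 tested genes. Levels are CPM on the TMM scale, divided where stated by exonic length in kb. A count of 0 allows up to 3 counts, or 0.688 to 1.11 CPM. Such floors leave out every error but counting error, as copies made by PCR do not count as separate molecules. Libraries of a stage varied beyond sampling noise (chi-square of 1.27 to 1.92 per degree of freedom), and each counted once. Exact permutation tests (scipy 1.17.1) ran over 10 splits. The fit was tested on simulated data. Of the 93 symbols, 92 were found in RefSeq as a symbol or synonym. The spans of 14 members overlap a gene on the other strand, with overlapping genes that span over 1 Mb left out. The annotated span of cdc37, left out in this way, covers cct4 on the other strand.

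The members, gene lists and tests were chosen with earlier results of these data known. Named are all tested CCT, HSP90, HSP60, BAG and HSF genes, in other classes the 4 with the smallest adjusted p and the gene highest per kb, genes called against their class, and the 6 listed partners with the smallest adjusted p. Others were chosen after their values were seen. Alternatives were DESeq2 size factors, library totals, leaving out mitochondrial genes, the DESeq2 1.42.0 Wald test, no low-count filter, a mean of at least 50 counts, an exonic length offset and leaving out each library. Promoter, protein and other sequences were not analysed here.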

Additional observations from a re-analysis of the deposited data

How the results depend on the processing

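With library totals 5 chaperone genes rose and 25 fell, or 7.46% and 37.3% of those tested. Over all tested genes 2173 rose, or 18.1%, and 46.4% fell. By class the rises were then 0 for CCT, prefoldin, DNAJB, DNAJC, BAG and the other hsp names, and 1 each for HSP90, HSP70 and HSP110, DNAJA and HSF. The falls were 2 for HSP70 and HSP110, 1 for HSP60 and HSP10, 5 for DNAJB (62.5% of those tested) and 11 for DNAJC (55.0%). The other pathway genes gave 7 rises (14.3%) and 20 falls (40.8%). Log2 fold changes turned sign there for 17 of the 67 tested members, among them cct8 (-0.00), cct5 (-0.08), tcp1 (-0.08), cct6a (-0.28), pfdn5 (-0.21), hspa9 (-0.09), hspa4b (-0.26), dnajc7 (-0.12), dnaja2 (-0.00), bag1 (-0.19) and bag3 (-0.33), since that scaling moves all values down. DESeq2 size factors turned cct2 (0.04) and left 1 fall in DNAJB. The exonic length offset turned pfdn2 (0.01), left 0 rises in prefoldin, 1 fall in DNAJB and 1 rise among ER members, and gave a difference of 0.18 between dnajc5aa and dnajc5ab.

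With the DESeq2 Wald test 8 of 84 tested chaperone genes fell, or 9.52%, beside 2497 of 15628 tested genes, or 16.0%. Rises made up 22.6% of these chaperone genes and 19.1% of all tested genes. That test gave 0 rises in prefoldin, 2 in DNAJB, 2 in DNAJC, 1 among ER members and 9 among other pathway genes. Its falls were 3 among the 15 ER members it tested, 1 in BAG, 0 in DNAJB and 0 among the other hsp names. With no low-count filter there was 1 rise in prefoldin, 2 rises and 1 fall in DNAJB and 1 rise among ER members. With a mean of at least 50 counts, which tests fewer genes, 2174 of all genes rose and 2317 fell. There was then 1 rise in prefoldin and 1 in HSP90, 1 fall each in HSP60 and HSP10, DNAJA and DNAJB, 0 falls among the other hsp names and 9 rises among other pathway genes. Shares of tested genes are not given for this setting or with no low-count filter, so counts by class cannot be set beside all genes there. Apart from effects of construction, the cause was not tested.

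Over fits without 1 library, log2 fold changes ranged from 1.84 to 3.17 for hsp90aa1.2, -0.40 to 0.62 for bag1, -0.14 to 0.23 for bag3, -0.25 to 0.19 for cct2, -0.02 to 0.28 for cct6a and -0.22 to 0.14 for pfdn2. Counts ranged from 1 to 2 falls in BAG, 1 to 3 falls in DNAJB, 0 to 1 falls in HSP60 and HSP10, 1 to 2 rises in HSP90, 8 to 14 rises among other pathway genes, 0 to 1 falls among the other hsp names and 0 to 2 rises in prefoldin. Over all genes, fits without 1 MBT library gave 3501 to 3647 rises and 3588 to 3743 falls, against 3724 and 3813 with every library. Calls were thus fewer over all genes too. Fits without a post-MBT library leave that stage unreplicated. The ranges by class include such fits, and shares of tested genes are not given for them. These ranges therefore do not separate a change in a class from a general loss of calls. No paired analysis was possible because the count columns carry no replicate number.

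Depth limits the genes with few counts: 26 members were not tested, and a miss there or elsewhere does not show that a gene stayed the same. Stage means rest on 3 and 2 libraries.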
